A study of Mus musculus with 19 samples.

Results

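The mouse genes named *Zfp700* to *Zfp999* were followed in single early (E3.25) blastocysts that lacked the nonsense-mediated RNA decay (NMD) factor UPF2. Members were chosen by name alone: 139 genes of the count table carried such a symbol, and 126 of them reached 10 counts in some embryo and were kept, of 17137 genes that passed this filter. The other 13, among them *Zfp708*, *Zfp804a* and *Zfp831*, did not reach 10 counts in any embryo and were not tested. Each of 8 *Upf2*-null (Upf2 -/-) and 11 control (Upf2+/+) whole embryos gave 1 library. Per the labels zygotes were grown in M16 medium. The embryos came from crosses between *Upf2* heterozygotes on a C57BL/6 background, and were taken 90 to 94 h after the superovulated mothers, 4 to 8 weeks old, received hCG. The null allele came from a floxed gene recombined by Cre under the *E2a* promoter and lacks exons 2 and 3. The study's methods state that a truncated protein without NMD activity is still made, and the eggs of both genotypes came from mothers with 1 working copy.

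Most members encode proteins with tandem C2H2 zinc fingers, each finger a short loop that holds a zinc ion and reads a few bases of DNA. In many of them a KRAB box precedes the fingers and recruits TRIM28, which brings in the histone methyltransferase SETDB1 and the HP1 proteins. The complex is best known for silencing retrotransposons and for protecting imprinted genes in the early embryo. The genes lie in tandem clusters that expanded by duplication, so neighbours are often alike in sequence.

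Of the 126 members, 124 were annotated as protein-coding and 2 (*Zfp783* and *Zfp939*) as transcribed pseudogenes. A KRAB-like pattern was found in the translated coding sequence of 102 of the 124. Members with this pattern are called KRAB genes below, and how often it matches proteins without the box was not measured. The coding members held a median of 11 C2H2 finger patterns, with at most 30 in *Zfp729b*. Chromosomes 7, 17, 4, 8 and 13 carried 25, 23, 16, 14 and 13 members, and *Zfp711* was the one member on the X. The linker between neighbouring fingers was the most widely shared stretch. The following 21-base word is shown as an example of the sequence these genes share. It stood 89 times in the longest transcripts of 30 members, untranslated parts included. Of all 14299 protein-coding genes tested, 55 (0.385%) had it in their longest transcript. Capitals mark the bases that code the conserved linker.
finger linker word: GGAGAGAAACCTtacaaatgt
Over longer words of 50 bases, 16 members shared at least 50% of their exonic words with another gene. *Zfp935* shared 100%, whereas *Zfp811* shared 0.647% and *Zfp809* none. Words were matched on either strand. The 94.7% of *Zfp784* was shared with *Zfp865*, which overlaps it on the opposite strand, so it is not a separate copy. Values of the members that share most are therefore uncertain. A gene on the opposite strand overlapped 41 members, and the counting is not stated to use strand, so reads of such pairs cannot be told apart.

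The libraries held 4056072 to 5993745 counts and 14522 to 17084 genes with a count, with the fewest genes in control embryo 5. *Upf2* itself ran from 64.3 to 123 CPM (counts scaled to library size with TMM factors) in the null embryos, median 88.7, and controls spanned 37.2 to 87.8 with a median of 55.2. Its log2 fold change was 0.66 (SE 0.18, adjusted p = 0.185 by edgeR's quasi-likelihood test), and the whole-gene count includes exons outside the deletion, so it does not check the labels. Blastocyst markers were present: mean CPM in null and control embryos was 18.7 and 18.3 for *Cdx2* (trophectoderm), 175 and 243 for *Nanog* (epiblast), and 144 and 136 for *Gata6* (primitive endoderm). The 10 epiblast markers summed to 458 to 663 CPM in the null embryos and 556 to 1000 in the controls, and 7 of the 10 had a log2 fold change below 0. In RNA counts of whole embryos fewer epiblast cells and less RNA per cell cannot be told apart. The study stained other blastocysts and counted fewer NANOG-positive cells in null ones. The part of the epiblast difference in the results below was not tested. Genes of the 2-cell stage summed to 1709 CPM in control embryo 2 and 319 in control embryo 4, against 4.33 to 50.8 in the other 9 controls and 0.354 to 16.1 in the null embryos, so results were repeated without these 2 embryos. Of 10 cumulus and granulosa cell markers only *Amhr2* passed the filter, and *Fshr* and *Cyp19a1* were at 0 in every embryo. The labels do not say which embryos were littermates.

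Between the genotypes, 1 member passed an adjusted p of 0.1 by edgeR's quasi-likelihood test over all genes tested: *Zfp811*, higher in the null embryos. This is 1 of 126 (0.794%) against 0.175% of all genes tested that were called higher. No member was called lower, where 0.0175% of all genes were. On the same counts and filter, DESeq2 called *Zfp811* higher and no member lower (0.694% and 0.504% of the genes it tested), as did limma voom (0.514% and 0.14%). These runs are not independent of each other. *Zfp811* passed the filter only through null embryos, so its direction was fixed in all of them. At an unadjusted p under 0.05, 7 members were higher (5.56%, against 5.15% of all genes) and 2 were lower (1.59%, against 7.38%). Of the 240 tested genes named *Zfp1* to *Zfp699*, 3.75% were higher and 3.33% lower. The share of all genes that were lower varied with level: 10.8% below a mean of 10 CPM and 3.76% to 5.07% in the bands above. Members had a median level of 20.9 CPM, against 14.0 for all genes. In no member did the null and control embryos separate without overlap, where 0.0875% of all genes were fully higher and 0.00584% fully lower.

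*Zfp811*, a KRAB zinc finger gene on chromosome 17 (GRCm38 chr17:32795676-32809931, minus strand) with 13 finger patterns, had 54, 0, 18, 0, 28, 41, 1 and 0 counts in null embryos 1 to 8. The 11 control embryos had 2 counts in all, 1 each in control embryos 9 and 11. Null embryos 1, 3, 5 and 6 thus stood above every control, and the others overlapped them. In CPM the null embryos averaged 3.54 ± 4.31 (SD, n = 8) and the controls 0.034 ± 0.076 (n = 11). The summed counts, 142 against 2, gave a ratio of 96.3, with an exact 95% interval of 26.2 to 803 that covers counting error only. *Zfp811* passed the filter only through null embryos, so among the members kept it had to be higher there, and the ratio is a description. With any gene of at least 1 count tested instead, its edgeR adjusted p was 0.0835. The fitted log2 fold change, which depends on the prior count, was 5.87 (SE 1.20, edgeR adjusted p = 0.0639). Of the 4 null embryos with at least 10 counts, 3 had high levels of Y-linked genes and 1 had low levels.

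The call for *Zfp811* was lost when null embryo 1, 5 or 6 or control embryo 1, 3, 4, 7, 8 or 10 was left out, and the edgeR adjusted p over all 19 such fits ran from 0.0589 to 0.142. An exact permutation test of its log2 CPM gave p = 0.00569, or 0.373 after adjustment over all genes, and called no member (0.146% of all genes were called higher and 0.0175% lower by it).

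Its promoter window, 250 bases before to 50 after the RefSeq start site, is printed because *Zfp811* was the one member called, and that of *Zfp809*, which was detected in every embryo at a similar level, is set beside it. Sequences are RefSeq's on GRCm38.p6, read along the gene's strand, and capitals mark CG dinucleotides, which read the same on both strands.
Zfp811 promoter, chr17:32809882-32810181, minus strand: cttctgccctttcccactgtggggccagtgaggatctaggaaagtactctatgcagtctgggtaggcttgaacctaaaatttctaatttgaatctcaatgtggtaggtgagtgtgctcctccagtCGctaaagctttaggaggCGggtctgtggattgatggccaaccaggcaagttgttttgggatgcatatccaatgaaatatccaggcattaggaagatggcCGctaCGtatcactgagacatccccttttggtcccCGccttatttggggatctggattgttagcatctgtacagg
Zfp809 promoter, chr9:22225453-22225752, plus strand: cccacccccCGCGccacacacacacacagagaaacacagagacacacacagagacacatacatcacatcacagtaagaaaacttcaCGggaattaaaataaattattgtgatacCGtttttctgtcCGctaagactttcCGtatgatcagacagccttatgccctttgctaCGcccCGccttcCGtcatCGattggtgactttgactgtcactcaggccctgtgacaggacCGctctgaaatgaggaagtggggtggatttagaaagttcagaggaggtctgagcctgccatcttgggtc
The *Zfp811* window held 5 CG and the *Zfp809* window 11. Windows were matched for 108 members, which held a median of 10 CG, against 19 over 11964 genes tested and 7 over all 27025 windows listed. At least 1 CG stood in 100% of the members' windows, 99.0% of those of genes tested and 94.2% of all.

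*Zfp811* lies between *Zfp871* and *Zfp799* in a cluster of 8 members. *Zfp799*, named here after its values were seen, had 8 to 73 counts in the null embryos and 0 to 37 in the controls, with 4 controls at 0. Its level was 6.23 ± 5.04 CPM (n = 8) against 2.41 ± 2.98 (n = 11), a log2 fold change of 1.36 (SE 0.91, edgeR adjusted p = 0.638). The 8 genes of the cluster summed to 221 ± 41.5 CPM in null and 196 ± 36.7 in control embryos, and 5 of them had a log2 fold change above 0.

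**Figure D1:**
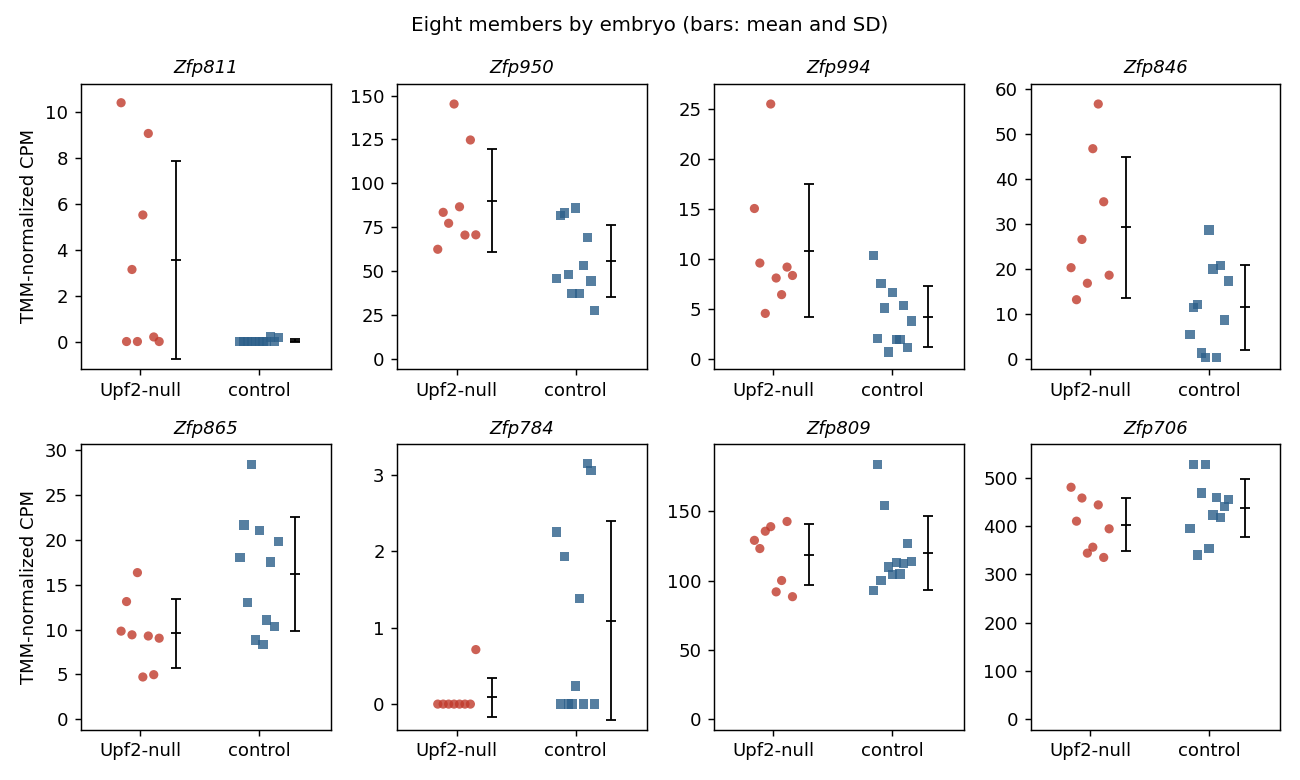
TMM-normalized CPM of 8 members in each of 8 *Upf2*-null (circles) and 11 control (squares) embryos, with the mean and SD of each genotype beside the points and a separate vertical axis for each gene. *Zfp811* lies between 3.14 and 10.4 CPM in 4 null embryos and at or below 0.199 in all other embryos, whereas *Zfp809* and *Zfp706* overlap between the genotypes.

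None of the other members that lay higher in the null embryos passed the adjusted threshold. *Zfp950*, a KRAB gene with 17 fingers, had the next lowest p. It ran from 62.4 to 145 CPM, median 80.3, in null embryos, and controls spanned 27.3 to 86.0 with a median of 48.2. All 8 null embryos lay above the control median, although the ranges overlapped. Its log2 fold change was 0.69 (SE 0.22, edgeR p = 0.00566, adjusted p = 0.259).

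*Zfp994* and *Zfp846*, both KRAB genes, likewise had all 8 null embryos above the control median. Of the 126 members, 4 had all 8 null embryos above the control median and 2 had all 8 below it. The share over all genes was not counted, so this trait is a description only. *Zfp994* ran from 4.53 to 25.5 CPM, median 8.74, in null embryos, and controls spanned 0.663 to 10.3 with a median of 3.77. Its log2 fold change was 1.35 (SE 0.49, edgeR adjusted p = 0.262). *Zfp846* ran from 13.1 to 56.6 CPM, median 23.4, in null embryos, and controls spanned 0.213 to 28.6 with a median of 11.3. Its log2 fold change was 1.35 (SE 0.62, edgeR adjusted p = 0.362), and it was one of the 2 members with the widest spread among controls at 10 CPM or more.

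*Zfp992*, *Zfp938*, *Zfp719*, *Zfp991* and *Zfp952*, all KRAB genes, had log2 fold changes between 0.41 and 0.70, with edgeR adjusted p from 0.262 (*Zfp992*) to 0.458 (*Zfp952*). *Zfp992* averaged 29.9 ± 6.51 CPM in null embryos (n = 8) and 19.6 ± 5.54 in controls (n = 11), with 7 of 8 null embryos above the control median. *Zfp991*, which shared 82.2% of its exonic words, averaged 13.4 ± 3.83 against 9.24 ± 2.19 CPM. Both are genes of the chromosome 4 cluster and share sequence. *Zfp957* had 33 counts in the null embryos, 24 of them in null embryo 2, and 3 in the controls (edgeR adjusted p = 0.309), and it passed the filter only through that null embryo.

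On the lower side no member passed the adjusted threshold, and the 2 lowest p-values belonged to an overlapping pair. *Zfp865* (chr7:5020376-5036768, plus strand) and *Zfp784* (chr7:5034439-5038446, minus strand) overlap on opposite strands. Of the exonic words of *Zfp784*, 94.7% also stand in *Zfp865*, so the counts of this pair are uncertain. *Zfp865* ran from 4.72 to 16.3 CPM, median 9.35, in null embryos, and controls spanned 8.31 to 28.3 with a median of 17.5. All 8 null embryos lay below the control median, and the ranges overlapped. Its log2 fold change was -0.75 (SE 0.32, edgeR adjusted p = 0.322). *Zfp784* was at 0 counts in 7 of 8 null embryos and 5 of 11 controls, with 3 counts against 63 in all (edgeR adjusted p = 0.291), and it passed the filter only through controls.

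The pseudogene *Zfp939* averaged 10.2 ± 8.13 CPM in null embryos (n = 8) and 22.8 ± 14.6 in controls (n = 11), a log2 fold change of -1.16 (SE 0.56, edgeR adjusted p = 0.410). *Zfp989*, a chromosome 4 gene, had all 8 null embryos below the control median at 3.94 ± 1.51 against 6.19 ± 2.41 CPM (edgeR adjusted p = 0.579). *Zfp729b*, *Zfp981*, *Zfp936* and *Zfp791* had log2 fold changes from -0.80 (*Zfp791*) to -0.35 (*Zfp936*). *Zfp879* was nearly silent, with 1 count in null embryos and 12 in controls, and passed the filter only through 1 control embryo at 1.97 CPM.

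Members with a known role did not pass the adjusted threshold either. *Zfp809*, which recruits TRIM28 to retroviral DNA, ran from 88.5 to 143 CPM, median 126, in null embryos, and controls spanned 92.7 to 183 with a median of 112. Its log2 fold change was -0.01 (SE 0.13, edgeR adjusted p = 0.995), a sign that turned under other scalings. *Zfp932*, which represses endogenous retroviruses, averaged 76.4 ± 10.7 CPM in null embryos and 97.2 ± 32.5 in controls, a log2 fold change of -0.35 (SE 0.18, edgeR adjusted p = 0.473), and shared 37.0% of its exonic words. *Zfp961*, another KRAB gene linked to retroviral silencing, averaged 153 ± 48.4 against 160 ± 21.7 CPM (log2 fold change -0.06, SE 0.15). *Zfp819*, which binds TRIM28, averaged 4.76 ± 4.73 against 11.6 ± 9.34 CPM, with 7 of 8 null embryos below the control median (log2 fold change -1.28, SE 0.83, edgeR adjusted p = 0.623).

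The members in which the KRAB-like pattern was not found, which does not show that the box is absent, include several factors known from other tissues. *Zfp706*, which promotes exit from embryonic stem cell self-renewal, averaged 403 ± 54.9 CPM in null embryos (n = 8) and 437 ± 60.5 in controls (n = 11), a log2 fold change of -0.12 (SE 0.09, edgeR adjusted p = 0.717). *Zfp830*, needed for survival of the inner cell mass, ran from 14.8 to 113 CPM, median 77.9, in null embryos, and controls spanned 23.6 to 113 with a median of 88.7 (log2 fold change -0.31, SE 0.31). *Zfp746*, the parkin substrate PARIS, and *Zfp704* had log2 fold changes of 0.11 (SE 0.31) and -0.05 (SE 0.21). *Zfp703* averaged 8.74 ± 8.01 against 4.99 ± 2.99 CPM, with 26.5 CPM in null embryo 7. *Zfp750*, a regulator of epidermal differentiation, had 13 counts in null embryos and 31 in controls and was at 0 in 12 of 19 embryos.

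The X-linked *Zfp711* was also near silent. Its counts split into 72 in 5 of the 14 embryos with high Y-linked expression and 2 in 2 of the 5 embryos with low Y-linked expression. The highest value was 8.26 CPM, in a control embryo with high Y-linked expression. Those 14 embryos were 6 null and 8 control, and the 5 others 2 null and 3 control.

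Levels can be compared between members only per length. CPM per 1000 exonic bases ran from 0.0236 to 84.8 with a median of 3.93. *Zfp706* was highest at 84.8, followed by *Zfp977* at 57.3, *Zfp985* at 55.1, *Zfp830* at 49.4 and *Zfp954* at 45.8. These are descriptions over 19 embryos, and the embryos of the genes below *Zfp706* overlap widely. All 126 members together took 0.340% to 0.538% of the normalized reads, at 4476 ± 531 CPM in null embryos (n = 8) and 4426 ± 458 in controls (n = 11). The 2 genotypes overlapped in this sum.

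**Figure D2:**
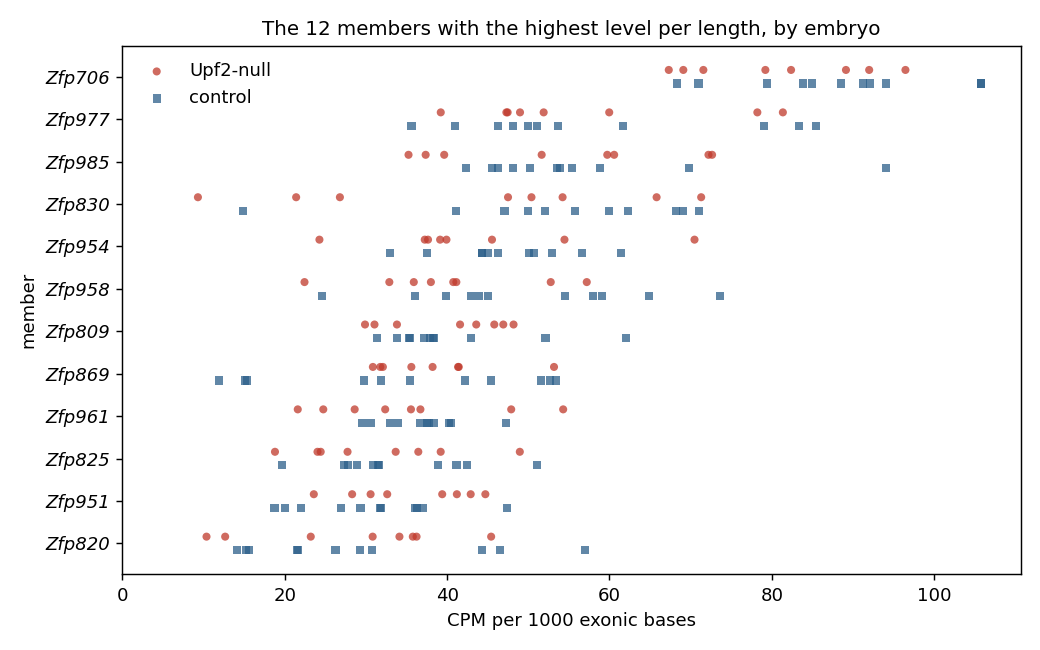
CPM per 1000 exonic bases of the 12 members with the highest mean level per length, each point an embryo (circles, 8 *Upf2*-null; squares, 11 control). *Zfp706* lies to the right of most points of the other genes, and the genotypes overlap in each of the 12 members shown.

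By mean CPM, 9 members lay at 100 or more, 40 from 30 to below 100, 36 from 10 to below 30, 34 from 1 to below 10 and 7 below 1. The spread between control embryos fell with level. The median biological coefficient of variation in controls was 0.917 for members at 1 to 10 CPM, 0.705 at 10 to 30, 0.387 at 30 to 100 and 0.241 above. All genes tested in the same bands had medians of 1.13, 0.669, 0.389 and 0.200. *Zfp706* and *Zfp961* had the lowest values among members at 10 CPM or more (0.163 and 0.175), and *Zfp941* and *Zfp846* the highest (1.19 and 1.10).

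**Figure D3:**
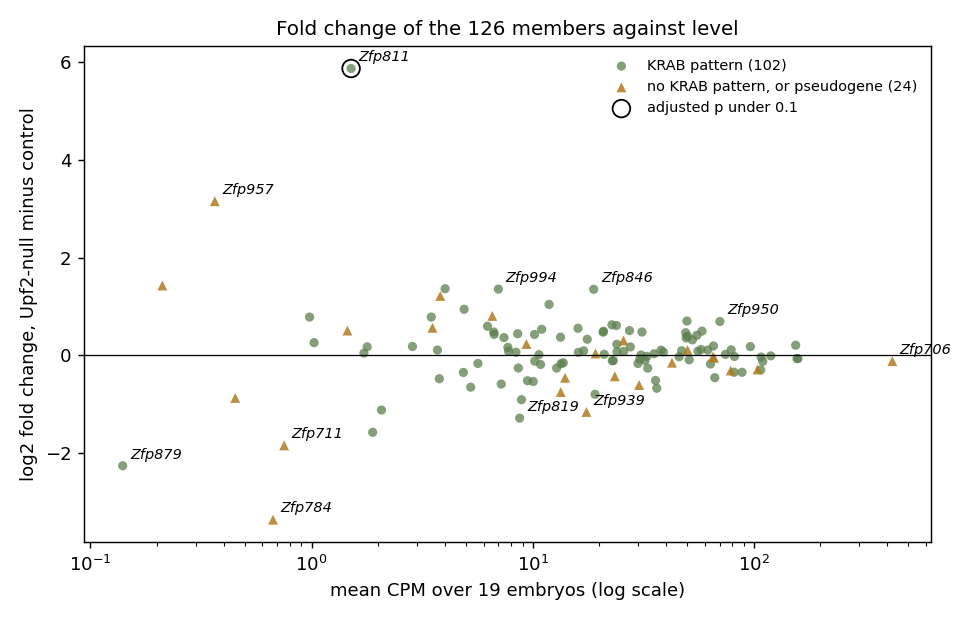
Log2 fold change (*Upf2*-null minus control, edgeR) of the 126 members against mean CPM on a log scale, with 102 KRAB members as circles and the other 24 as triangles. *Zfp811* at 5.87 is the one member past the adjusted threshold, and the values of *Zfp957* (3.15) and *Zfp784* (-3.36) belong to members below 1 CPM.

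As a group the members were spread around 0. Of the 126, 71 (56.3%) had a log2 fold change above 0, with a median of 0.06, while 47.7% of all genes tested lay above 0 with a median of -0.02. The 240 tested genes named *Zfp1* to *Zfp699* had 117 (48.8%) above 0, with a median of -0.01, and none was called. The members' median stayed between 0.02 and 0.09 over the 14 alternatives that did not leave out single embryos, the lowest with the replicate number as a block (65 of 126 above 0), but fell to 0.0009 without null embryo 2 and rose to 0.11 without null embryo 8. Of the 102 KRAB members 61 lay above 0 (median 0.08), and of the 22 coding members without the pattern 9 did (median -0.08). This split moved with the embryos and the test: without null embryo 4 the KRAB members had 52 above 0 and a median of 0.0098, without null embryo 8 their median was 0.15, and under limma voom the others had 5 above 0 and a median of -0.28. Leaving out the 16 members that share most of their words left 64 of 110 above 0, with a median of 0.07. Of the 9 members at 100 CPM or more, *Zfp951* alone lay above 0, with a log2 fold change of 0.21 (SE 0.17, edgeR adjusted p = 0.730).

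Members chained within 1 Mb formed 9 clusters of at least 4 genes. The largest, on chromosome 4 (145510759 to 147848366), held 16 KRAB genes, of which 9 lay above 0 and 7 below. It summed to 501 ± 102 CPM in null embryos and 493 ± 121 in controls.

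In the cluster of 13 KRAB genes on chromosome 17 (21567008 to 22867134), which includes *Zfp994*, 11 lay above 0 with a median log2 fold change of 0.36. Of the 13, 1 had an unadjusted p under 0.05 and none was called. Summed over the genes, the null embryos ran from 218 to 546 CPM and the controls from 210 to 552, so the genotypes overlapped fully. The median ranged from 0.13 to 0.40 when 1 embryo, or control embryos 2 and 4, were left out, and was 0.03, with 7 of 13 above 0, with the replicate number as a block.

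All 6 genes of the chromosome 8 cluster (69209038 to 69791178) lay above 0, from 0.06 to 0.78, and none had an unadjusted p under 0.05. The highest value was that of *Zfp964*, a member with few counts. It had 12, 35 and 3 counts in null embryos 3, 4 and 8, 0 in the other null embryos, and 0 to 16 in controls. Their sum was 264 ± 39.4 CPM in null and 222 ± 43.9 in control embryos. Under other scalings and tests as few as 4 of the 6 lay above 0. In the chromosome 7 cluster that holds *Zfp764* and *Zfp768* (127244274 to 127406822), 3 of 4 genes lay below 0, at 31.4 ± 23.9 against 47.7 ± 21.3 CPM.

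**Figure D4:**
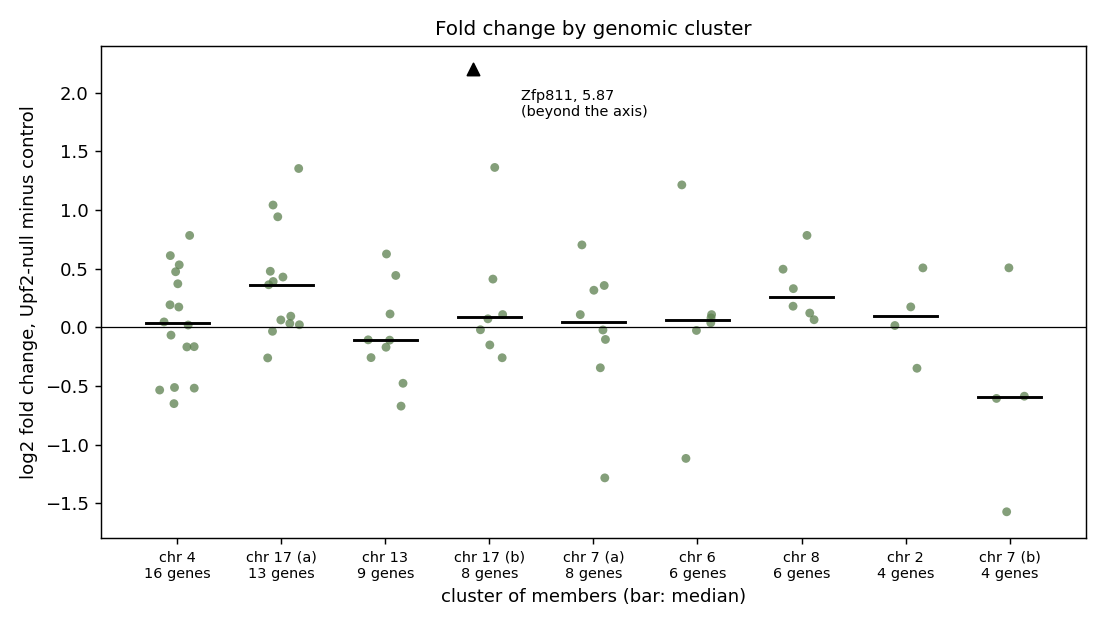
Log2 fold change (*Upf2*-null minus control, edgeR) of members in the 9 genomic clusters of at least 4 members, each point a gene and each bar the cluster's median. The black triangle is *Zfp811*, whose value of 5.87 lies beyond the axis. The 13 genes of chromosome 17 (a) have a median of 0.36 and the 6 of chromosome 8 one of 0.25, and points lie on both sides of 0 in each cluster but that of chromosome 8.

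Pearson correlations between members were taken over the 19 embryos, on log2 CPM less the mean of each genotype. Pairs of the same cluster had a median of 0.278 (149 pairs, among 85 members at 10 CPM or more), and pairs on different chromosomes one of 0.057 (3169 pairs). Pairs share libraries, and clustered genes also share sequence, so these values are descriptions.

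A set of 28 members (22.2%, against 39.6% of all genes tested) was at 0 counts in at least 1 embryo and at 10 or more in another. Of these, 19 were KRAB genes, and their median level was 3.80 CPM, against 28.8 for the other 98. *Zfp810* shows the pattern at a high level: it averaged 37.3 ± 14.9 CPM in null embryos (n = 8) and 26.8 ± 15.7 in controls (n = 11) and was at 0 in control embryo 4. Both *Zfp810* and *Zfp850*, the latter at 0 in control embryo 5, were named here after their values were seen. Control embryo 5, the library with the fewest genes detected, had 19 of the 28 at 0, where the other embryos had 4 to 10. The 24 of these members with a promoter window held a median of 14 CG, and the 84 others one of 9.5.

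**Figure D5:**
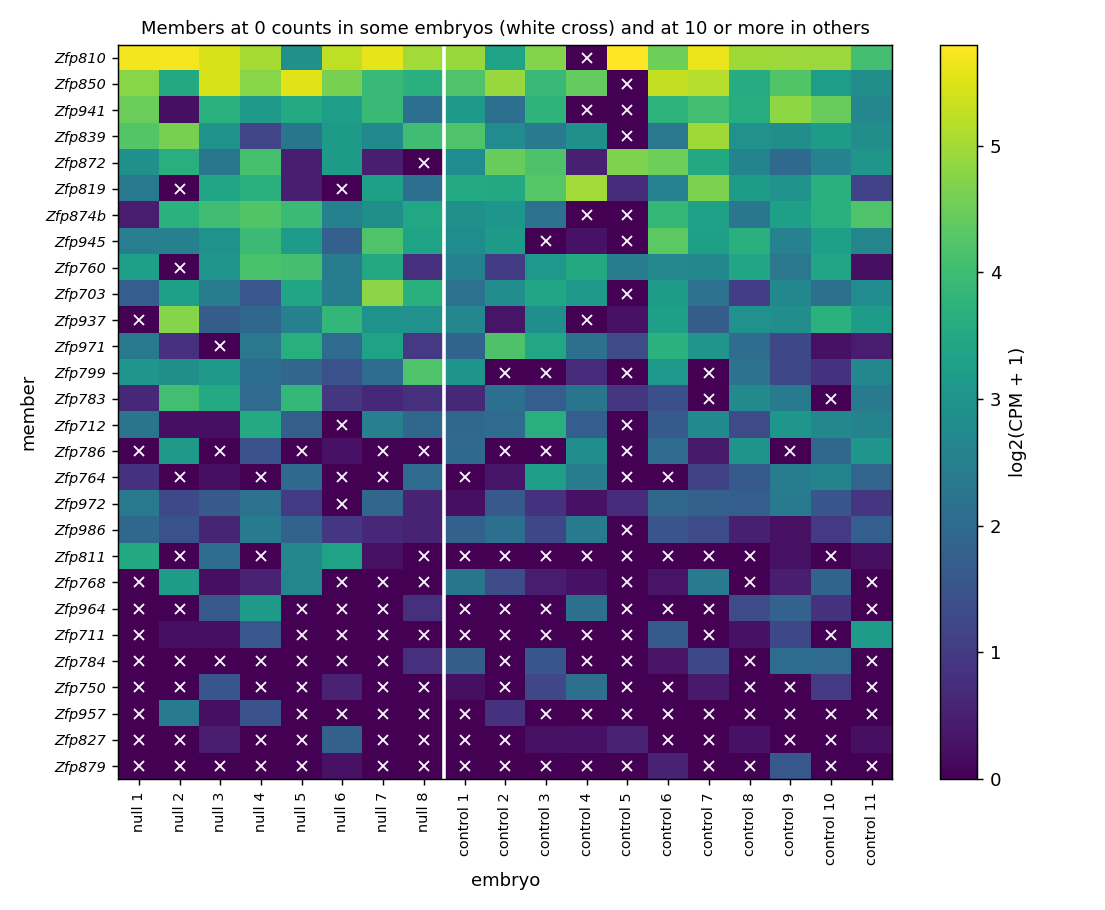
Log2(CPM + 1) of the 28 members at 0 counts in some embryo and at 10 or more in another, in rows ordered by mean CPM, for 8 null and 11 control embryos, with a white cross at 0 counts. *Zfp811* is at 0 in 9 of 11 controls and 3 of 8 null embryos, and control embryo 5 has the most crosses, 19.

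UPF2 acts in NMD, which degrades transcripts that stop translation upstream of an exon junction, and long 3′ UTRs are another known trigger. Of the 124 coding members 13 (10.5%) had a transcript annotated as an NMD target, against 26.6% of 14299 coding genes tested. Among the 13, 10 had a log2 fold change above 0, with a median of 0.11, and the members without such a transcript had a median of 0.03. Of all 3801 coding genes tested that had such a transcript 1899 lay above 0, with a median of -0.0003, and coding genes without one had a median of -0.03. *Zfp950* had 4 such transcripts, and *Zfp811* had none. The median 3′ UTR was 1003 bases in coding members and 751.5 in coding genes tested.

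The cofactors that KRAB proteins work through were measured as a list of 33 genes, all of which passed the filter. None was called by edgeR, where 0.175% of all genes were called higher and 0.0175% lower. Of the 33, 13 lay above 0 (39.4%, against 47.7% of all genes) and 20 below. At an unadjusted edgeR p under 0.05 none was higher (against 5.15% of all genes) and 2 were lower (6.06%, against 7.38%). *Trim28*, the corepressor that binds the KRAB box, averaged 249 CPM in null embryos (n = 8) and 270 in controls (n = 11), a log2 fold change of -0.12 (edgeR adjusted p = 0.708). *Setdb1*, the methyltransferase it recruits, averaged 61.1 against 54.3 CPM (log2 fold change 0.17, edgeR adjusted p = 0.842). The lowest p-values below 0 were those of the histone deacetylase gene *Hdac1* (log2 fold change -0.19, edgeR adjusted p = 0.333) and the histone chaperone gene *Rbbp4* (-0.31, edgeR adjusted p = 0.345). Those above 0 were *Cbx1*, an HP1 gene (0.15, edgeR adjusted p = 0.606), and *Uhrf1*, a partner of the maintenance DNA methyltransferase (0.43, edgeR adjusted p = 0.725). Among 17 listed KRAB genes named outside the range, 16 were tested and none was called. *Zfp57*, which protects imprinted loci, averaged 6.45 CPM in null and 9.17 in control embryos (edgeR adjusted p = 0.813).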

How the data were processed

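After adapter trimming the authors used STAR 2.5.2a for alignment to GRCm38 and SAMtools to drop PCR duplicates. The deposited counts per gene were then taken from paired reads by featureCounts. A second table deposited by the authors holds scaled signal values. They are each count times 1 factor per embryo, and 100% came out as whole reads within 0.01, over 16878 genes. The deposited merged transcript models were used only to count assembled transcripts per locus, and no position given here comes from them.

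All genes that reached 10 counts in some embryo entered a robust quasi-likelihood fit in edgeR 4.0.16, with TMM factors and genotype as the only term, and p-values were adjusted by Benjamini-Hochberg over all of them, at a threshold of 0.1. DESeq2 1.42.0, limma 3.58.1 (voom, limma-trend), sva 3.50.0, R 4.3.3, Python 3.11.15, numpy 2.4.6, pandas 2.3.3 and matplotlib 3.10.9 were used. Log2 CPM used a prior count of 2, log2 of the scaled values a pseudocount of 1. Exact permutation tests were two-sided over 75582 arrangements. Intervals cover counting error only. Symbols, positions and coding sequences came from GENCODE M21. On simulated counts of 16108 genes, edgeR recovered 31% of 2-fold and 56% of 4-fold changes, with 18.7% of calls false. For DESeq2 34.8% of calls were false, and for limma voom 13.2%. The false shares lay above the threshold of 0.1 and depend on how many genes were changed. Only genes with a mean of at least 1 CPM were changed, so recovery was not measured for members below 1 CPM.

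Named were members past the threshold, the 10 lowest p on each side, the 5 highest mean CPM, the extremes of spread, listed members with a known role, and the 2 lowest p on each side among cofactors. Genes named otherwise were chosen after their values were seen. Members and lists were chosen with earlier results of these data known. The recovered reads and the permutation test were added as alternatives after seeing the data. Embryos count as replicates, and where the labels do not tell litters apart p-values measure the spread between these embryos. No embryo pair of a genotype agreed within sampling noise, with a chi-square per gene of at least 10.1.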

Additional observations from a re-analysis of the deposited data

Results flagged for a closer look

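Among 38 quantities checked in the null embryos (n = 8 each), 6 had 1 embryo farther from the rest than Dixon's 95% limit of 0.526 allows. For normally distributed values chance alone flags about 1 in 20, which does not hold for members mostly at 0 counts. *Zfp957*, *Zfp784*, *Zfp879*, *Zfp711* and *Zfp750* were at 0 counts in 5 to 7 of the 8 null embryos. Where 7 are at 0, any count in the remaining embryo passes the limit. *Zfp957* reached 4.25 CPM in null embryo 2, against 1.74 in the next embryo. *Zfp784* reached 0.713 CPM in null embryo 8 and *Zfp879* 0.221 CPM in null embryo 6, each with all other null embryos at 0. *Zfp703* reached 26.5 CPM in null embryo 7, against 11.9 in the next. *Zfp711* reached 1.96 CPM in null embryo 4 and *Zfp750* 1.92 CPM in null embryo 3.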

How the results depend on the processing

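Over 34 alternatives, 33 named members gave 1111 values: 1066 kept their direction and side of the threshold, 31 changed sign and 14, all of *Zfp811*, lost the call. No other member was called, so only *Zfp811* could lose a call. Members named for a low p were picked from these same embryos, so their kept direction is a description. Members called higher numbered 0 under edgeR's filterByExpr filter (which removes *Zfp811*), a threshold of 0.05, the scaled table with limma-trend, the exact permutation test, omission of control embryos 2 and 4 together, and the replicate block, and 0 to 1 when 1 embryo was left out. Members called lower stayed at 0 under all alternatives. The 8 embryo pairs that share a number had correlations of -0.137 to 0.069 and 0 of 8 null embryos correlated best with its own number, so the numbers do not pair embryos. The replicate block left 0 genes called of all tested. Under it *Zfp711* had 0.45 and *Zfp941* 0.46 as log2 fold change. *Zfp811* had an adjusted p of 0.351 with limma-trend, 0.373 by permutation and 0.136 without control embryos 2 and 4, where its log2 fold change was 5.71, and 5.40 to 6.31 with 1 embryo left out.

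Other sign changes were small. *Zfp809* had log2 fold changes of 0.015 under voom, 0.00484 with upper-quartile factors, 0.026 with library totals, 0.00588 with a Y-linked covariate and 0.12 without control embryos 2 and 4. *Zfp985* had 0.00927 and *Zfp746* -0.053 under voom, and 0.00765 and -0.032 without those 2 embryos. *Zfp941* had 0.096 with limma-trend and 0.20 by permutation. With 1 embryo left out the ranges were -0.14 to 0.027 for *Zfp985*, -0.18 to 0.014 for *Zfp961*, -0.052 to 0.061 for *Zfp809*, -0.15 to 0.038 for *Zfp704*, -0.043 to 0.27 for *Zfp746*, -2.77 to 0.051 for *Zfp750* and -0.39 to 0.13 for *Zfp941*. The cause was not tested. Depth limits members below 1 CPM, where a few counts decide a value.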
